A study of Saccharomyces cerevisiae with 75 samples.

Results

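RPL28 (locus YGL103W on chromosome VII, synonym CYH2) encodes a protein of the large ribosomal subunit of Saccharomyces cerevisiae, and its probes were followed here across yeast strains that lack SR-like proteins, the decay factor Upf1 or both. All probes that the array's gene table assigns to RPL28 by symbol were taken. They were 3 of 1536 probes and 18 of 9216 spots, for 1 of the 982 genes named on the array, and they are called the first, the second and the third printed probe by their order in the print. The sources used here do not say what each of them matches (exon, intron or junction), so the 3 probes were kept apart throughout.

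RPL28 carries an intron, and its splicing is inefficient. Part of the unspliced pre-mRNA reaches the cytoplasm, where translation meets stop codons in the intron and nonsense-mediated decay destroys it, which made the CYH2 pre-mRNA a textbook substrate of that pathway. Upf1, an RNA helicase encoded by NAM7, is a core factor of the pathway. Npl3, Gbp2 and Hrb1 are RNA-binding proteins that resemble the SR proteins of animals, and Npl3 also acts in the export of mRNA from the nucleus.

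The series compared total RNA of strain pairs on 75 two-colour arrays, of which 73 compared deletion strains in 37 pairs of extracts, all but 1 hybridised in both dye orientations. Strains lacking both Npl3 and Upf1 (npl3Δ upf1Δ) were compared with wild type (WT) at 30 °C and 15 min into 37 °C, with npl3Δ after 15 min at 37 °C and as the second strain at 30 °C, and with upf1Δ at 30 °C, in 1 extract pair each. The upf1Δ strain was compared with WT after 15 and 30 min at 37 °C, and with npl3Δ at 30 °C and (as the second strain) after 15 min at 37 °C, also in 1 pair each. A sample labelled upf1Δ plus npl3Δ was compared with npl3Δ after 30 min at 37 °C in 1 pair, and the label does not say whether this was a double mutant or a mixture. The npl3Δ strain was compared with its matched WT in 7 pairs at 30 °C and, at 37 °C, in 2 pairs at 15 min, 6 at 30 min and 1 at 45 min, with 1 further pair held at 16 °C for 30 min. The gbp2Δ and hrb1Δ strains each had 2 pairs against WT at 37 °C for 30 min and 1 at 30 °C, and gbp2Δ hrb1Δ had 2 pairs in both conditions. The remaining 2 arrays compared prp2-1, a temperature-sensitive splicing mutant, with the mutants prp5-1 and prp8-1 after 30 min at 37 °C. The labels do not say whether the pairs of one group go back to separate cultures. A p-value here therefore describes the spread among extract pairs alone, and part of that spread may be technical. In the joint fit of the 37 pairs, groups with 1 or 2 pairs borrow that spread from the others.

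Values are log2 ratios of the strain named first over the strain named second, where 1 unit is a 2-fold ratio. That both dye orientations run this way was read from the values, and arrays of opposite dye correlated below 0 over all probes in 10 of 36 pairs. Scanner intensities were not used here, so the brightness behind a ratio is unknown, and precision depends on how many arrays there are. The label checks came first. The NAM7 probe was called lower in every comparison of a strain without Upf1 over WT or over npl3Δ, for example at -3.65 (adjusted p = 1.1e-09) in upf1Δ over WT after 15 min at 37 °C and -1.55 (adjusted p = 0.00384) at 30 °C. The GBP2 probe was called lower in every comparison of a strain without Gbp2 over WT. The HRB1 probe was called lower in strains without Hrb1 over WT, except in hrb1Δ at 30 °C, at -0.43 (adjusted p = 0.999). The NPL3 probe lay between -2.19 and -0.63 in 16 of the 17 pairs of npl3Δ over WT. In the remaining pair, the one labelled npl3Δ replicate 3 at 30 °C, it was at 1.47, against its label, so the main results at 30 °C that use that pair are also given without it. In the pair of upf1Δ plus npl3Δ over npl3Δ the NAM7 probe was at -3.95 and the NPL3 probe at 0.01. In npl3Δ upf1Δ over npl3Δ after 15 min at 37 °C they were at -4.14 and -0.01. What the sample was made of was not tested further.

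In strains without Upf1, the second printed probe of RPL28 rose in every comparison with WT or npl3Δ that was tested, at 30 °C and at 37 °C. The third printed probe rose after 15 and 30 min at 37 °C but was not called at 30 °C. The first printed probe was called in 0 of the 32 comparisons and differences fitted. Of the 23 comparisons between strains the second probe was called in 11 and the third in 7. These arrays measure RNA relative to the total, in whole cultures, so less RNA per cell and fewer cells that hold it cannot be told apart. Temperature and batch cannot be told apart for strains without Upf1 either. All their 30 °C pairs lay in batches C and F of the 6 batches that the array titles define, all 15 min pairs in batch D and both 30 min pairs in batch E.

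**Figure D1:**
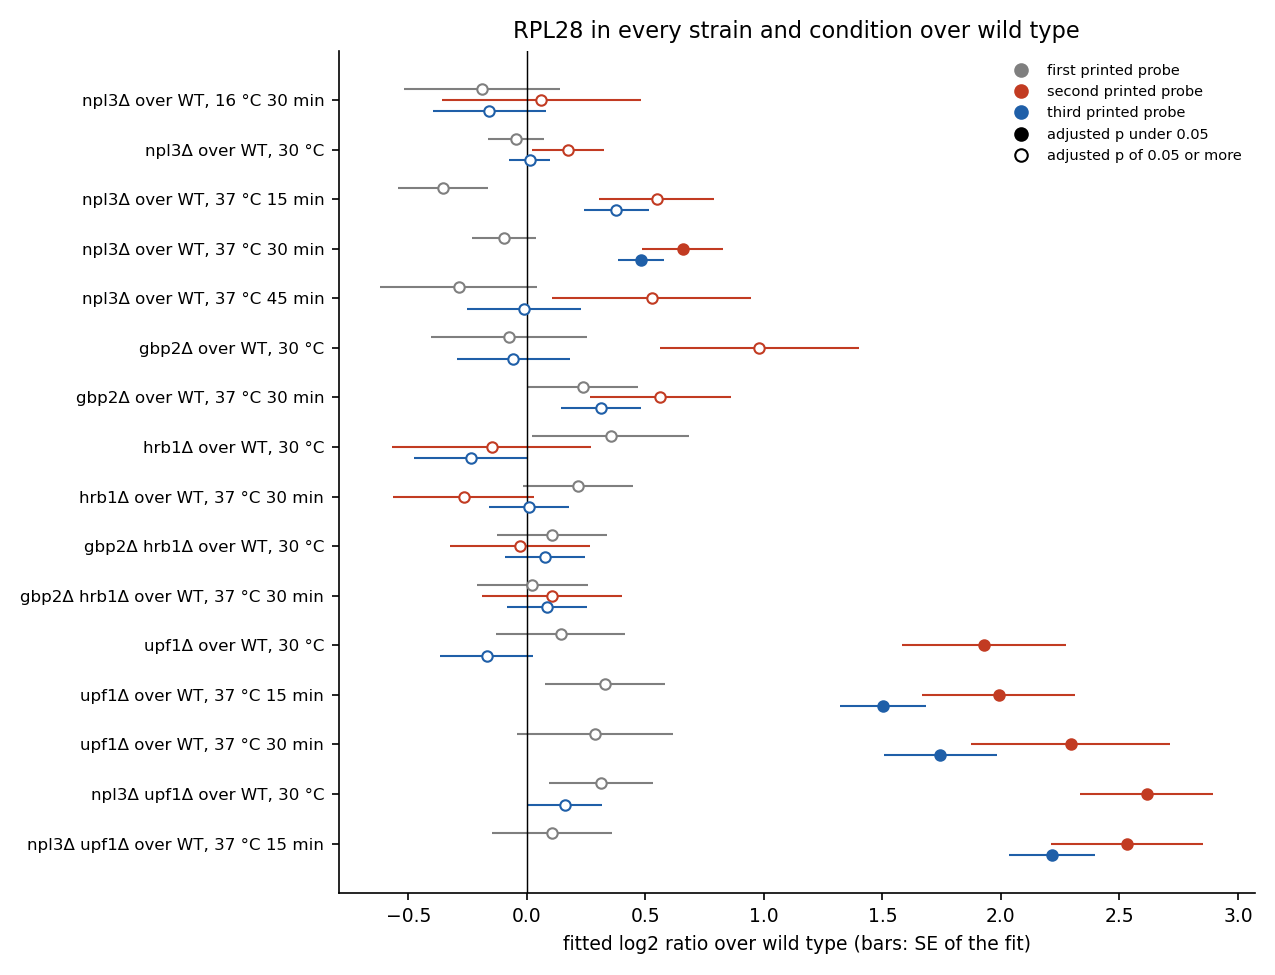
Fitted log2 ratio over wild type (x axis, with bars for the SE of the fit) of the 3 RPL28 probes in 16 comparisons, listed down the page by strain and condition. Filled points have an adjusted p under 0.05. The second probe lies between 1.93 and 2.61 in the 5 comparisons without Upf1, the third probe only joins it at 37 °C, and the first probe has no filled point.

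On the arrays of npl3Δ upf1Δ over WT at 30 °C, the second probe was at 3.17 with the mutant in Cy5 and 2.86 with the mutant in Cy3. After 15 min at 37 °C it was at 2.83 and 2.40. Every one of these 4 arrays was above 2, at both temperatures. The fit over all 37 pairs gave 2.61 ± 0.28 (SE, limma adjusted p = 2.33e-07) at 30 °C, where 14.6% of all probes tested were called higher, and 2.53 ± 0.32 (adjusted p = 7.17e-06) at 37 °C, where 8.4% were. Without the npl3Δ pair that goes against its label the value at 30 °C was 2.67 (adjusted p = 1.61e-08).

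In upf1Δ over WT the second probe was at 2.06 and 2.28 on the arrays of opposite dye after 15 min at 37 °C. After 30 min it was at 2.43 and 2.16. The dye orientations differed by less than the height of the signal in both pairs, though over all probes they correlated at 0.054 and 0.004. The fitted values were 1.99 ± 0.32 (SE, adjusted p = 0.00051) after 15 min and 2.29 ± 0.42 (adjusted p = 0.00421) after 30 min, against backgrounds of 1.04% and 0.651% of all probes called higher. Without its own pair the value after 15 min was 1.74 and not called (adjusted p = 0.455). No array compared upf1Δ with WT directly at 30 °C. The fit reached this comparison through npl3Δ and npl3Δ upf1Δ, and gave 1.93 ± 0.35 (adjusted p = 0.0021), where 1.37% of probes were called higher. One pair behind this value was upf1Δ over npl3Δ, whose arrays stood at 0.45 with upf1Δ in Cy5 and 2.25 with upf1Δ in Cy3, and whose dye orientations correlated at -0.052 over all probes. Another was npl3Δ upf1Δ over upf1Δ, without which the fitted value was 1.49 and no longer called (adjusted p = 0.278). It was not called either with the first-named strain in Cy5 only, at 1.44 (adjusted p = 0.113), and was 2.005 (adjusted p = 0.000647) without the npl3Δ pair that goes against its label.

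Loss of Upf1 in cells that already lacked Npl3 raised the second probe as well. In npl3Δ upf1Δ over npl3Δ after 15 min at 37 °C the second probe was at 1.96 and 1.85 on its arrays, and the fit gave 1.98 ± 0.32 (SE, adjusted p = 0.000666), with 2.41% of probes called higher, but 2.10 and no call without this pair (adjusted p = 0.151). At 30 °C npl3Δ was hybridised as the first strain against npl3Δ upf1Δ, and the second probe was at -2.24 and -2.66, so it was the lower one in npl3Δ on both arrays. Turned to npl3Δ upf1Δ over npl3Δ, the fitted value was 2.44 ± 0.27 (adjusted p = 4.9e-07), with 11.6% of probes called higher, and 2.40 (adjusted p = 2e-07) without the npl3Δ pair that goes against its label. In the sample labelled upf1Δ plus npl3Δ over npl3Δ, after 30 min at 37 °C, the arrays were at 2.22 and 1.96 and the fit gave 2.09 ± 0.42 (adjusted p = 0.0074), with 1.04% called higher. With the first-named strain in Cy5 only it was not called (adjusted p = 0.0939).

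When npl3Δ was set against upf1Δ, the second probe was lower in npl3Δ. After 15 min at 37 °C it was at -1.60 and -0.92 on the arrays of opposite dye, and the fitted value was -1.44 ± 0.32 (SE, adjusted p = 0.0183), with 0.781% of probes called lower. At 30 °C the fitted value was -1.76 ± 0.33 (adjusted p = 0.00234), with 1.3% called lower. Between npl3Δ upf1Δ and upf1Δ no difference was called. The arrays at 30 °C were at 0.14 and 0.41, and the fit, which also uses the other pairs at that temperature, gave 0.69 ± 0.33 (adjusted p = 0.46). After 15 min at 37 °C the fitted value was 0.54 ± 0.42 (adjusted p = 0.924).

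The effect of losing Upf1 was also compared between cells without and with Npl3. For the second probe, the change in npl3Δ cells minus the change in WT cells was 0.51 ± 0.37 (SE, adjusted p = 1) at 30 °C and -0.01 ± 0.49 (adjusted p = 1) after 15 min at 37 °C. Both estimates lay within 2 SEs of 0. The SEs come from the fit over all 37 pairs, while each direct comparison with a strain lacking Upf1 had 1 pair.

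**Figure D2:**
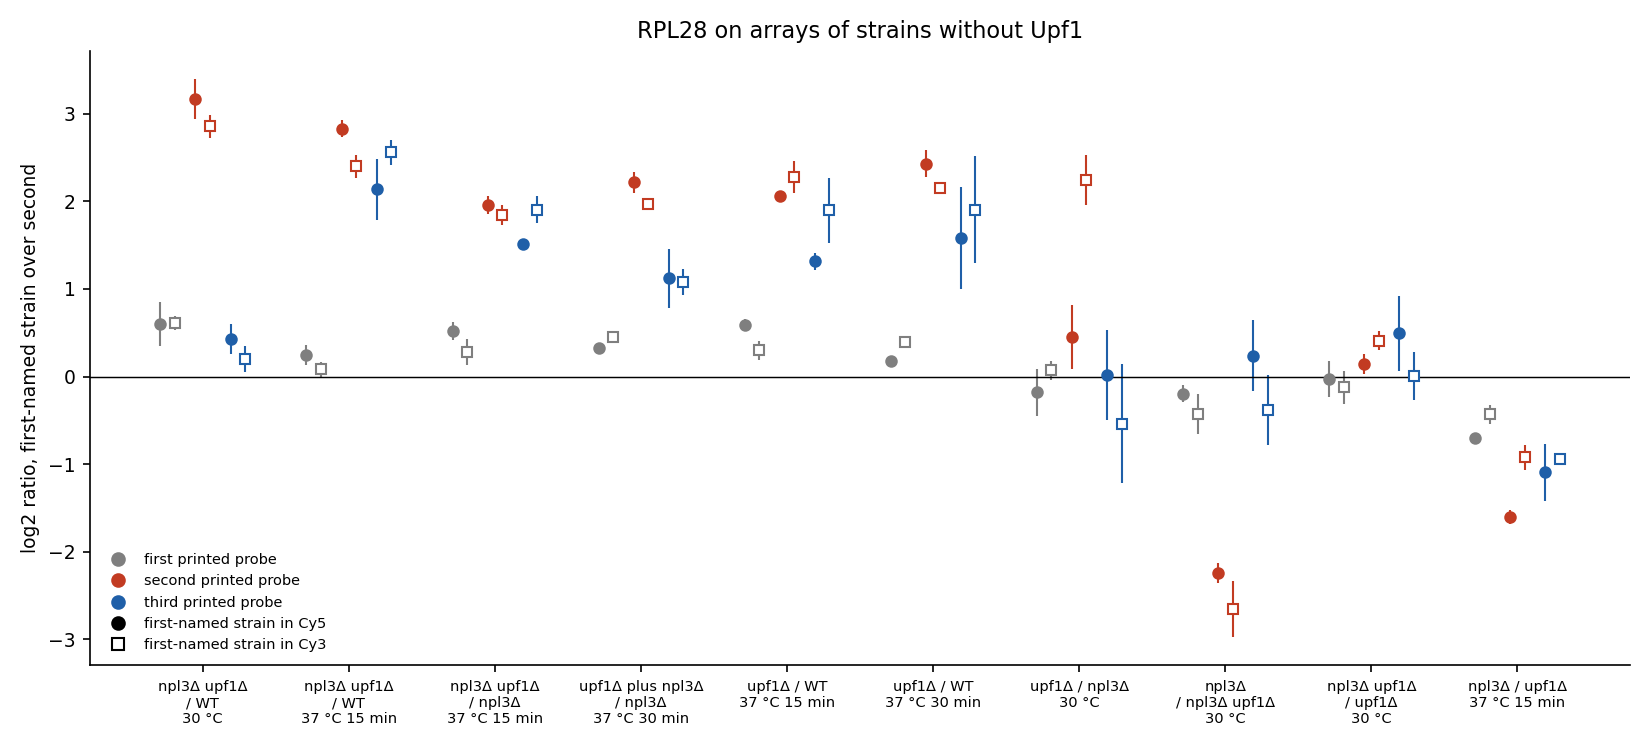
Mean log2 ratio of the spots of each RPL28 probe (y axis, first-named strain over second, with bars for the SD between spots) on each array of the 10 extract pairs that include a strain without Upf1. Circles have the first-named strain in Cy5 and squares in Cy3. The second probe lies at 1.85 or above on every array of the 6 pairs on the left, and the third probe lies at 0.43 and 0.20 in npl3Δ upf1Δ over WT at 30 °C but at 2.14 and 2.56 after 15 min at 37 °C.

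The third printed probe differed between the 30 °C and the 37 °C pairs of strains without Upf1, which also lay in different batches. In npl3Δ upf1Δ over WT it was at 2.14 and 2.56 on the arrays of opposite dye after 15 min at 37 °C. At 30 °C it was at 0.43 and 0.20. These arrays are the dye orientations of 1 extract pair per temperature. The fitted values were 2.22 ± 0.18 (SE, adjusted p = 3.54e-09) at 37 °C and 0.16 ± 0.16 (adjusted p = 0.525) at 30 °C. In upf1Δ over WT the third probe was at 1.32 and 1.90 after 15 min at 37 °C and at 1.59 and 1.90 after 30 min. The fit gave 1.50 ± 0.18 (adjusted p = 9.71e-06) and 1.74 ± 0.24 (adjusted p = 8.4e-05), and at 30 °C, without a direct array, -0.17 ± 0.20 (adjusted p = 0.815). Without its own pair the 15 min value was 1.35 and not called (adjusted p = 0.0627). Without the npl3Δ pair that goes against its label, the 30 °C values were 0.19 (adjusted p = 0.397) in npl3Δ upf1Δ over WT and -0.13 (adjusted p = 0.798) in upf1Δ over WT.

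The same held relative to npl3Δ. In npl3Δ upf1Δ over npl3Δ the third probe was at 1.51 and 1.90 after 15 min at 37 °C, with a fitted value of 1.84 ± 0.18 (SE, adjusted p = 1.81e-07). At 30 °C the arrays of npl3Δ over npl3Δ upf1Δ were at 0.24 and -0.38, on either side of 0, and the fitted value turned to npl3Δ upf1Δ over npl3Δ was 0.15 (adjusted p = 0.592). In upf1Δ plus npl3Δ over npl3Δ after 30 min at 37 °C the arrays were at 1.12 and 1.08 and the fit gave 1.10 ± 0.24 (adjusted p = 0.0155), a call that neither dye orientation gave alone (adjusted p = 0.131 and 0.128). In npl3Δ over upf1Δ after 15 min at 37 °C the third probe was lower in npl3Δ, at -1.09 and -0.95, with a fitted value of -1.12 ± 0.18 (adjusted p = 0.000869).

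The difference between 15 min at 37 °C and 30 °C was then tested directly, in comparisons chosen after the values had been seen. For the third probe it was 2.06 ± 0.24 (SE, adjusted p = 1.09e-05) in npl3Δ upf1Δ over WT, 1.69 ± 0.24 (adjusted p = 0.000294) in npl3Δ upf1Δ over npl3Δ and 1.67 ± 0.27 (adjusted p = 0.00243) in upf1Δ over WT. In each of these 3 tests the third probe of RPL28 was the single probe called higher of the 1536, or 0.0651%. The last of them has no direct array at 30 °C and was not called without the pair of upf1Δ over npl3Δ (adjusted p = 0.138) without that of upf1Δ over WT (adjusted p = 0.16) or with the first-named strain in Cy5 only (adjusted p = 0.104). The difference over npl3Δ was not called with 1 coefficient per group (adjusted p = 0.24). For the second probe of RPL28 the same differences were -0.08 (adjusted p = 0.958), -0.46 (adjusted p = 0.998) and 0.06 (adjusted p = 0.994), the last of which was -0.54 without the pair of upf1Δ over npl3Δ. Since the 30 °C and the 37 °C pairs with a strain lacking Upf1 lay in different batches, the temperature and the batch cannot be told apart in these differences.

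Each probe was printed at 2 places of 3 spots, and how near the prints of the third probe were to each other varied by batch. Averaged over both dyes, its prints were at 2.26 and 2.46 after 15 min at 37 °C and at 0.33 and 0.29 at 30 °C in npl3Δ upf1Δ over WT. There the gap between temperatures was larger than the gap between prints. The median gap between prints on an array was 0.135 in batch D, which holds the 15 min pairs, but 0.455 in batch C, 0.394 in batch E and 0.998 in batch B. In upf1Δ over WT after 30 min (batch E) the prints were at 2.11 and 1.06 with upf1Δ in Cy5. In upf1Δ over npl3Δ at 30 °C (batch C) they were at 0.47 and -0.44 with upf1Δ in Cy5, and at -1.05 and -0.04 with upf1Δ in Cy3. The prints thus differed by about 1 unit on these arrays.

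The first printed probe was not called in the same samples. Its fitted value was 0.14, 0.33 and 0.29 in upf1Δ over WT at 30 °C and after 15 and 30 min at 37 °C. It was 0.31 (adjusted p = 0.348) and 0.10 (adjusted p = 0.864) in npl3Δ upf1Δ over WT at 30 °C and after 15 min at 37 °C. The arrays of the 30 °C pair were at 0.60 and 0.61. Relative to npl3Δ it was 0.36 at 30 °C and 0.46 after 15 min at 37 °C in npl3Δ upf1Δ, and 0.39 in upf1Δ plus npl3Δ after 30 min. The lowest value was -0.69 in npl3Δ over upf1Δ after 15 min at 37 °C, with an unadjusted p of 0.0116 and an adjusted p of 0.247.

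Differences between the probes of RPL28 were tested over the 230 genes that have 3 probes in this inferred order. With neighbouring wells read the other way round, 93 genes would have had it. The second minus the third probe was 2.46 ± 0.24 (SE, adjusted p = 3.98e-08) in npl3Δ upf1Δ over WT at 30 °C, 2.29 (adjusted p = 8.61e-08) in npl3Δ upf1Δ over npl3Δ and 2.10 ± 0.30 (adjusted p = 2.39e-05) in upf1Δ over WT. The share of genes called higher in this contrast was 68.7%, 54.3% and 6.96% in those comparisons, so in the strains without Npl3 a call was the usual outcome. Without the npl3Δ pair that goes against its label the contrasts were 2.48, 2.28 and 2.13, all still called. After 15 min at 37 °C the contrast was 0.31 (adjusted p = 0.401) in npl3Δ upf1Δ over WT, 0.14 (adjusted p = 0.819) over npl3Δ and 0.49 (adjusted p = 0.994) in upf1Δ over WT, and in these comparisons both probes were called higher. The contrast fell by 2.14 (adjusted p = 0.000951) at 37 °C relative to 30 °C in npl3Δ upf1Δ over WT, with 0.87% of genes called lower. Over npl3Δ the same difference was -2.15 (adjusted p = 0.000729), again with 0.87% called lower. With the first-named strain in Cy5 only neither was called (adjusted p = 0.332 and 0.507), nor was the one over WT without its 37 °C pair (adjusted p = 0.0897), nor the one over npl3Δ with 1 coefficient per group (adjusted p = 0.13). These differences too were chosen after the values had been seen.

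The second minus the first probe was higher in npl3Δ upf1Δ over WT at both temperatures. It was 2.302 (adjusted p = 7.58e-06) at 30 °C, where 55.7% of genes were called higher, and 2.43 (adjusted p = 0.000106) after 15 min at 37 °C, where 32.2% were. It did not pass the test after 15 or 30 min at 37 °C in upf1Δ over WT, at 1.66 (adjusted p = 0.0618) and 2.01 (adjusted p = 0.144), nor after 15 min in npl3Δ upf1Δ over npl3Δ, at 1.52 (adjusted p = 0.0508). Without the npl3Δ pair that goes against its label the adjusted p of the 15 min values was 0.0201 in upf1Δ over WT and 0.0147 in npl3Δ upf1Δ over npl3Δ. The first minus the third probe was called lower at 37 °C, where few genes were. It was -2.11 (adjusted p = 4.8e-06) in npl3Δ upf1Δ over WT, with 0.87% of genes called lower, and -1.17 (adjusted p = 0.0247) in upf1Δ over WT, where RPL28 was the single gene called lower, or 0.435%.

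RPL28 was ranked among the genes printed with 3 probes. Its second probe stood at or near the top wherever a strain without Upf1 was set over WT or npl3Δ. In upf1Δ over WT its second probe ranked first of 230 second probes at 30 °C and after 15 and 30 min at 37 °C, and the next highest gene was at 1.79, 1.78 and 2.20. In npl3Δ upf1Δ over WT it ranked 10 of 230 at 30 °C and 5 of 230 after 15 min at 37 °C, where the highest second probes reached 3.44 and 3.32. The second probe of the large-subunit ribosomal protein genes as a group moved with it in the double mutant. Their median over 53 genes was 1.40 at 30 °C and 0.99 after 15 min at 37 °C in npl3Δ upf1Δ over WT, and 0.49, 0.07 and 0.20 in upf1Δ over WT at 30 °C and after 15 and 30 min at 37 °C. Of these 53 second probes 50 and 33 were called higher in npl3Δ upf1Δ over WT, against 6, 2 and 2 in upf1Δ over WT. Over all probes 14.6% and 8.4% were called higher in npl3Δ upf1Δ, against 1.37%, 1.04% and 0.651% in upf1Δ.

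The third probe of RPL28 stood away from that group. For this probe its rank among the 230 genes was 1 in upf1Δ over WT after 15 and 30 min at 37 °C and 1 in npl3Δ upf1Δ over WT after 15 min. The next highest genes there were at 0.63, 0.71 and 0.85. The median over the third probes of the large-subunit genes was -0.12, -0.13 and -0.24 in the same 3 comparisons, and RPL28 was the 1 large-subunit gene of 53 with the third probe called higher, where 1.04%, 0.651% and 8.4% of all probes were. At 30 °C the third probe of RPL28 ranked 119 of 230 in upf1Δ over WT, and 14 of 230 in npl3Δ upf1Δ over WT.

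**Figure D3:**
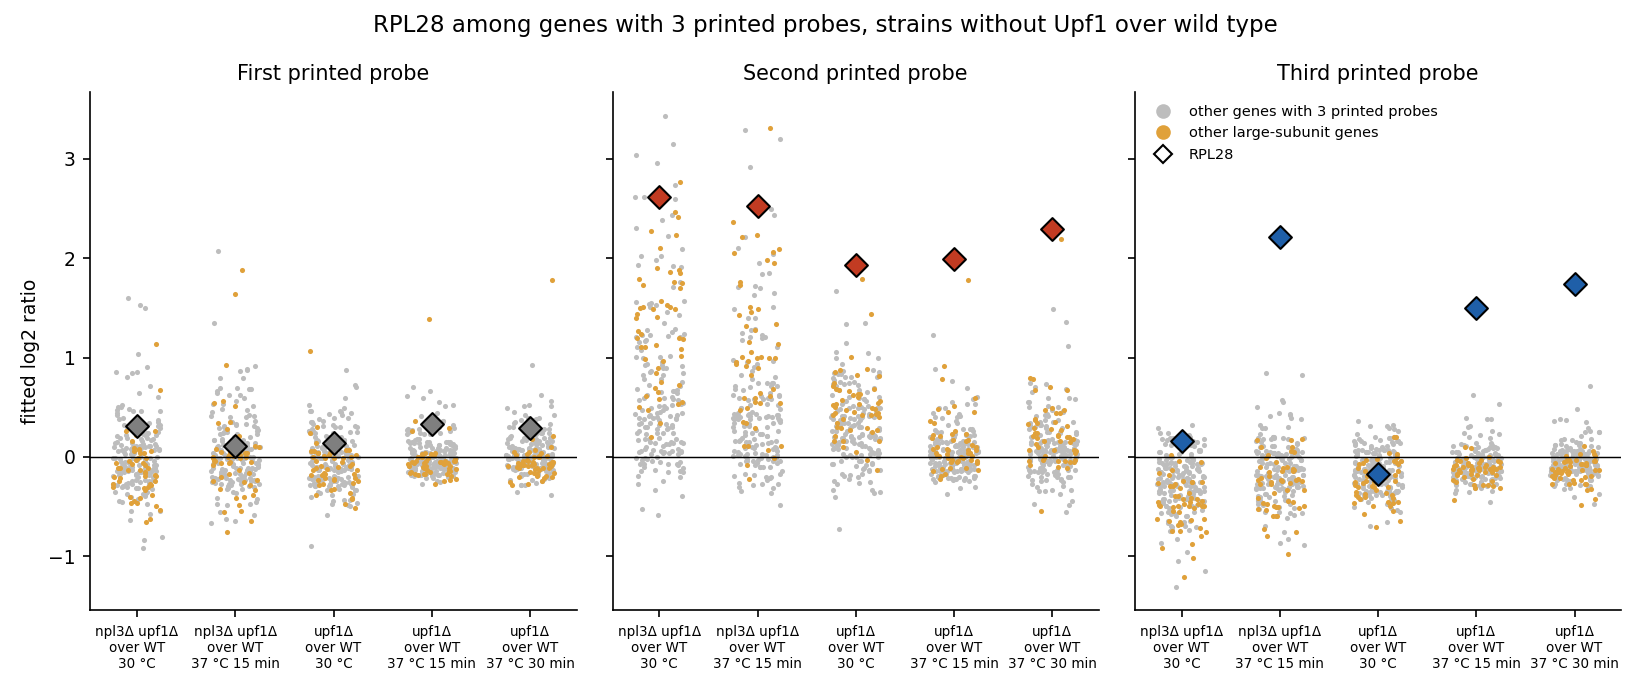
Fitted log2 ratio (y axis) of the first, the second and the third printed probe of the 230 genes with 3 printed probes, in npl3Δ upf1Δ and upf1Δ over wild type. Diamonds are RPL28 and orange points the other large-subunit ribosomal protein genes. The second probe of RPL28 is the highest of its panel in upf1Δ, at 1.93, 1.99 and 2.29, and the third stands clear of the others at 37 °C, at 2.22 in npl3Δ upf1Δ and at 1.50 and 1.74 in upf1Δ.

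Other known substrates of nonsense-mediated decay gave a background for these values. Of 7 such genes besides RPL28, 5 were on the array with 13 probes. In upf1Δ over WT 3 of the 13 probes were called higher at 30 °C, 3 after 15 min at 37 °C and 4 after 30 min, where 1.37%, 1.04% and 0.651% of all probes were. In npl3Δ upf1Δ over WT 5 were called higher and 1 lower at 30 °C, against 14.6% and 6.9% of all probes, and 3 higher after 15 min at 37 °C, against 8.4%. The genes called were RPL22B, a large-subunit paralog with an intron, REC107, a meiotic gene whose intron is retained in vegetative cells, and GCR1, a transcription factor of glycolytic genes, while no probe of TAN1 or PPR1 was called. RPL22B has a close paralog, RPL22A, and how far their probes tell them apart is not stated.

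The second probe of RPL22B was the nearest to that of RPL28. It was at 1.79 (adjusted p = 0.00507), 1.78 (adjusted p = 0.00327) and 2.20 (adjusted p = 0.00927) in upf1Δ over WT at 30 °C and after 15 and 30 min at 37 °C. The third probe of RPL22B was at -0.50, -0.28 and -0.27 in the same comparisons, below 0 in each, where the third probe of RPL28 was above 1 at 37 °C. In npl3Δ upf1Δ over WT at 30 °C the third probe of RPL22B was called lower, at -1.02 (adjusted p = 0.00242), and 6.9% of all probes were called lower there. The second probe of REC107 rose in upf1Δ over WT at 30 °C, at 1.34 (adjusted p = 0.000341), and after 30 min at 37 °C, at 1.12 (adjusted p = 0.0235). After 15 min at 37 °C it was not called, at 0.60 (adjusted p = 0.162) in upf1Δ over WT and 0.21 (adjusted p = 0.554) in npl3Δ upf1Δ over WT.

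Intron genes often used as splicing substrates in the laboratory were set beside RPL28 as well. Of 18 probes for 6 such genes besides RPL28 (ACT1, RPL30, RPS17A, RPS17B, TUB1 and YRA1), 1 was called higher in upf1Δ over WT at 30 °C and 0 after 15 or 30 min at 37 °C, where 1.37%, 1.04% and 0.651% of all probes were. The one called was the second probe of RPL30, which encodes a large-subunit protein that binds its own transcript, at 1.44 (adjusted p = 0.000907). In npl3Δ upf1Δ over WT 4 of the 18 were called higher and 3 lower at 30 °C, against 14.6% and 6.9% of all probes, and 2 higher after 15 min at 37 °C, against 8.4%. The second probe of the actin gene ACT1 was among them at 1.10 (adjusted p = 0.0001) and 1.18 (adjusted p = 0.000506). The third probe was called higher for none of these 6 genes in any of these comparisons.

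In npl3Δ over WT, where Upf1 is present, the values of RPL28 were smaller. Both the second and the third probe were called after 30 min at 37 °C, and no probe was called at 16 °C, at 30 °C or after 15 or 45 min at 37 °C. The second probe was at 0.72, 1.77, 0.49, 0.81, 0.45 and -0.29 in the 6 pairs of npl3Δ over WT after 30 min at 37 °C, a mean of 0.66 ± 0.67 (SD, n = 6). It was above 0 in 5 of the 6 pairs, and the single array of the last pair was below 0. The fit gave 0.66 ± 0.17 (SE, adjusted p = 0.00649) with 13.2% of all probes called higher. Fitted on these 6 pairs alone the adjusted p was 0.0828, and a two-sided exact sign-flip test over the pairs gave p = 0.0625 (0.188 after adjustment over 12 such tests). The call was lost without replicate 2, at 0.44 (adjusted p = 0.0551), and with npl3Δ in Cy5 only, at 0.56 (adjusted p = 0.0639).

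The third probe was at 0.77, 0.68, 0.22, 0.70, 0.22 and 0.31 in the same 6 pairs of npl3Δ over WT, a mean of 0.48 ± 0.26 (SD, n = 6). All 6 pairs were above 0. The fit gave 0.48 ± 0.10 (SE, adjusted p = 0.000854), the 6 pairs alone an adjusted p of 0.0326, and the two-sided exact sign-flip test p = 0.0312 (adjusted 0.188), the smallest that 6 pairs allow. The first probe was at 0.83, -0.39, -0.01, -0.86, 0.11 and -0.27 in these pairs, on both sides of 0, with an exact p of 0.656.

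At 30 °C the second probe was at 0.04, 0.30, -0.45, 0.38, 0.18, 0.11 and 0.27 in the 7 pairs of npl3Δ over WT. The 1 pair below 0 was replicate 3, in which the NPL3 probe goes against the label. The mean was 0.12 ± 0.28 (SD, n = 7, two-sided exact sign-flip p = 0.312) with that pair, and 0.21 ± 0.13 (SD, n = 6) without it, when all 6 remaining pairs were above 0 and the exact p was 0.0312, the smallest that 6 pairs allow. The fit over all pairs gave 0.17 ± 0.15 (SE, adjusted p = 0.605), with 3.32% of probes called higher, and 0.27 (adjusted p = 0.276) without replicate 3. The third probe at 30 °C was between -0.33 and 0.30 over the 7 pairs, with a fitted value of 0.01 ± 0.09 (adjusted p = 0.963), or 0.06 (adjusted p = 0.705) without replicate 3.

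After 15 min at 37 °C the second probe was at 0.38 and 0.45 in the pairs of npl3Δ over WT, and the fit gave 0.55 ± 0.24 (SE, adjusted p = 0.176) with 3.45% of probes called higher. The third probe was at 0.17 and 0.35, with a fitted value of 0.38 ± 0.14 (adjusted p = 0.106). After 45 min, with 1 pair, the second and the third probe were at 0.53 and -0.01, and at 16 °C they were at 0.06 and -0.16. None of these passed the test.

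**Figure D4:**
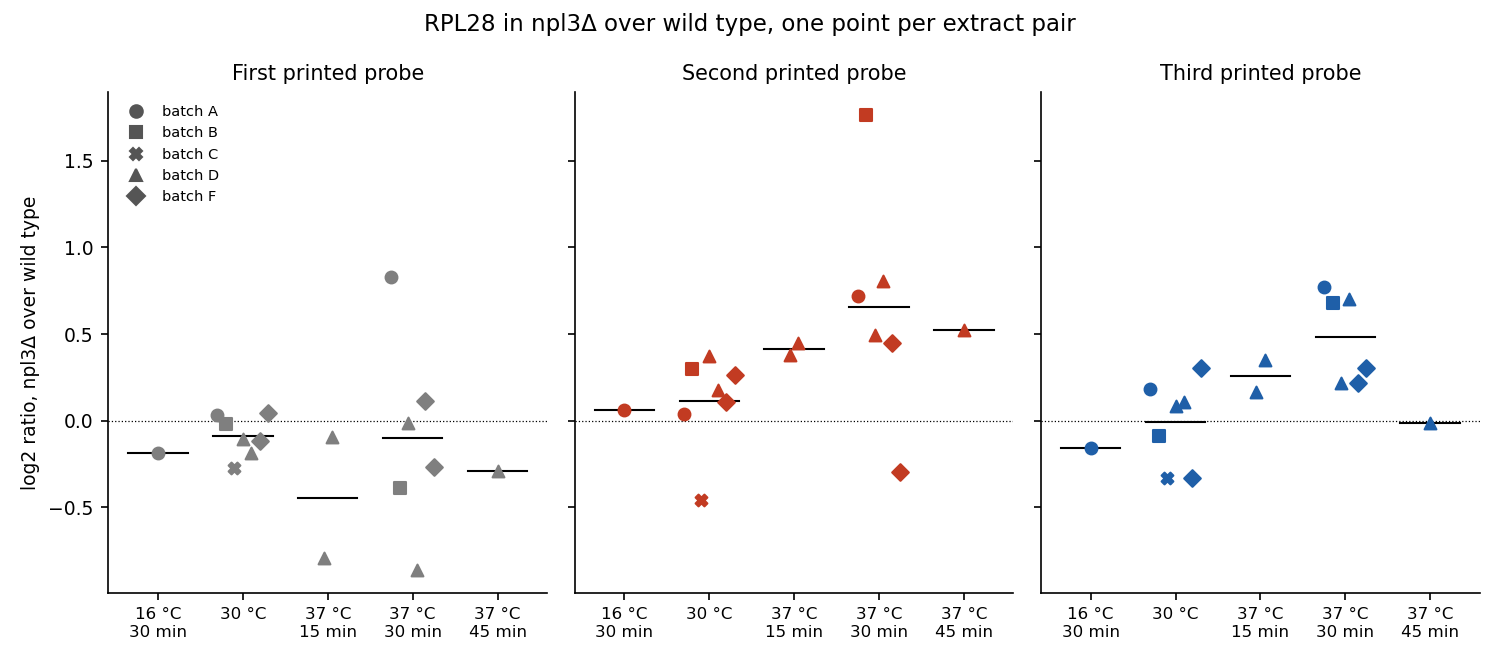
Log2 ratio of npl3Δ over wild type (y axis) for the 3 RPL28 probes in each extract pair, by temperature and time (x axis), with a line at the mean of each group. The marker gives the batch. After 30 min at 37 °C all 6 pairs are above 0 for the third probe and 5 of 6 for the second, while the pair of batch C at 30 °C lies lowest for the second probe, at -0.45.

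The difference in npl3Δ over WT between 30 min at 37 °C and 30 °C did not pass the test after adjustment. It was 0.49 (p = 0.0445, adjusted p = 0.581) for the second probe and 0.47 (p = 0.00132, adjusted p = 0.36) for the third. Without replicate 3 at 30 °C it was 0.39 (adjusted p = 0.815) and 0.42 (adjusted p = 0.495). Within the 4 batches that hold both conditions the difference for the third probe was 0.58, 0.77, 0.36 and 0.28 in batches A, B, D and F, above 0 in each. For the second probe it was 0.68, 1.47 and 0.38 in batches A, B and D and -0.11 in batch F. Batch B had the widest spread between spots, with a median SD of 0.33 for the second probe, and without batch B the second probe in npl3Δ over WT after 30 min at 37 °C was at 0.44 (adjusted p = 0.0405).

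Beside the other large-subunit genes, RPL28 had a like value for the second probe and a higher one for the third in npl3Δ. After 30 min at 37 °C the second probe of the large-subunit genes had a median of 0.58 in npl3Δ over WT, close to the value of RPL28, and 38 of the 53 were called higher, against 13.2% of all probes. The median for the third probe was -0.29, and 2 were called higher and 17 lower, while 13.2% of all probes were called lower and the third probe of RPL28 was the highest of the 53. Its contrast of the second minus the third probe was therefore small, at 0.17 (adjusted p = 0.328), and ranked 51 of 53, where the group's median was 0.79. The contrast of the second minus the first probe was 0.75 (adjusted p = 0.00399), with 47.8% of the 230 genes called higher.

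In strains without Gbp2, without Hrb1 or without both, no probe of RPL28 was called. The largest value was the second probe in gbp2Δ over WT, at 0.98 ± 0.42 (SE, adjusted p = 0.389) in the single pair at 30 °C. After 30 min at 37 °C it was at 1.04 in batch B and 0.08 in batch D, so the pairs differed by more than the fitted value of 0.56 ± 0.30 (adjusted p = 0.397). The pair at 30 °C was also of batch B. In hrb1Δ over WT the second probe was at -0.15 at 30 °C, in the pair whose HRB1 probe was not called lower. After 30 min at 37 °C it was at -0.65 and 0.12. In gbp2Δ hrb1Δ over WT it lay between -0.08 and 0.19 over the 4 pairs.

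On the 2 arrays of splicing mutants there is no replicate and no test. In prp2-1 over prp5-1, after 30 min at 37 °C, the probes were at 0.36, 1.28 and 0.10 in printed order, with SDs between spots of 0.18, 0.23 and 0.15. The second probe ranked 22 of 230 second probes there, whose median was 0.38, and 82 of 230 in prp2-1 over prp8-1, where the median was 0.30. In prp2-1 over prp8-1 the probes were at -0.04, 0.46 and -0.53, the last from 3 of its 6 spots. Prp2 is a helicase that acts on the assembled spliceosome, Prp5 acts when the U2 snRNP joins the branch site and Prp8 is a core protein of the spliceosome. The second probe was above the third in both, by 1.19 and 0.99. This contrast ranked 46 and 47 of 230 genes, whose medians were 0.37 and 0.37.

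Over the 37 pairs, the values of the RPL28 probes were compared with each other and with those of 1454 other probes, as a description. These pairs share strains, batches and control extracts, and for the second probe the highest and the lowest values are those of pairs with a strain lacking Upf1. The second and the third probe correlated at 0.733 over all pairs, 0.688 over the 10 pairs with a strain lacking Upf1 and 0.656 over the 27 others. The first and second probes correlated at 0.881 over those 10 pairs but -0.189 over the 27 others. Some of the 10 pairs name the strain lacking Upf1 second, such as npl3Δ over npl3Δ upf1Δ, with these probes at -0.31 and -2.45. The signs of their values, and so the correlations, depend on which strain was named first. The probe most like the second probe of RPL28 was that of NMD4, which encodes a partner of Upf1, with a Pearson r of 0.933 and a Spearman rho of 0.856. The second probe of RPL22B followed at 0.896, then ASP3-1 (asparaginase) at 0.860, the second probe of RPS13 (small ribosomal subunit) at 0.859 and MUS81 (an endonuclease subunit) at 0.856. ASP3-1 was only at rank 59 by Spearman. For the third probe of RPL28 the likeness was weaker, with the highest Pearson r at 0.705 for the first probe of RPL22B, whose Spearman rho was 0.410. For the first probe it was SWI5, a cell cycle transcription factor, at 0.726.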

How the data were processed

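The authors deposited log2 ratios per spot. No scale is stated, and log2 was taken from the size of the values. The sources used here do not give the background correction or normalization. No scanner intensities were used, and no centring was applied, because array medians lay between -0.03 and 0.033. The 6 spots of a probe were averaged, then both dye orientations of a pair of extracts. All 37 pairs of deletion strains were fitted with limma 3.58.1 in R 4.3.3 (17 coefficients, 20 residual degrees of freedom). Comparisons with 1 or 2 pairs thus borrow the spread of the others. Probes with values in at least 50% of pairs were tested, with Benjamini-Hochberg adjustment over 1536 probes (230 genes for differences between probes of a gene) and a threshold of 0.05. In data simulated for upf1Δ over WT after 15 min at 37 °C (1536 probes, 50 changed by each size), 96% of probes raised by 1 and 76% of those raised by 0.5 were called. The simulated noise was independent between pairs and smaller than each probe's spread over the 37 pairs. These shares may therefore be too high for the real data. Single values were tested by exact sign flips over pairs. Replicate numbers follow sample order and pair nothing. RPL28, the gene lists and the comparisons were chosen with earlier results of these data known. Genes outside the lists were named by likeness to each RPL28 probe. Gene names came from the platform table and RefSeq assembly R64. Coordinates and sequences are not used here. Alternatives included each dye orientation alone, the pair labelled npl3Δ replicate 3 left out or turned, 1 coefficient per group, and each pair left out.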

Additional observations from a re-analysis of the deposited data

Results flagged for a closer look

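In npl3Δ over WT at 30 °C, the second probe of RPL28 had 1 pair far from the others, replicate 3 at -0.45, against a lowest of 0.04 in the other 6 pairs. This is the pair whose NPL3 probe goes against its label, at 1.47. It was the 1 such case among 6 related measures in each of 2 groups, and chance gives about 1 in 20.

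Of 54 differences between conditions tested for RPL28, 7 were called, all among the 24 that set 15 min at 37 °C against 30 °C. For the third probe they were 2.06 in npl3Δ upf1Δ over WT, 1.69 in npl3Δ upf1Δ over npl3Δ and 1.67 in upf1Δ over WT. For the second minus the third probe they were -2.14 in npl3Δ upf1Δ over WT and -2.15 in npl3Δ upf1Δ over npl3Δ. For the first minus the third probe they were -2.26 in npl3Δ upf1Δ over WT and -1.59 in npl3Δ upf1Δ over npl3Δ. All 7 carry the third probe, and all 7 were chosen after the values had been seen. In all of them the pairs with a strain lacking Upf1 were of batch D at 37 °C and of batches C and F at 30 °C. Temperature and batch therefore cannot be told apart. At 30 °C the fit also draws on npl3Δ pairs of other batches.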

How the results depend on the processing

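The 56 results checked were those of the single probes and of the second minus the third probe. They leave out, among others, the other probe contrasts and npl3Δ over upf1Δ. Of the 56, 23 were called, and 15 of these kept the call under every one of the other settings and 16 under every omission of 1 extract pair. No called result changed sign, but uncalled values near 0 did, as given here. With batch as a random block no call among the 56 changed. With the first-named strain in Cy5 only, the second probe was 0.56 (adjusted p = 0.0639) in npl3Δ over WT after 30 min at 37 °C, 1.44 (0.113) in upf1Δ over WT at 30 °C and 2.22 (0.0939) in upf1Δ plus npl3Δ over npl3Δ, where the third was 1.12 (0.131). The first probe in npl3Δ over WT at 30 °C was 0.083. Differences between 15 min at 37 °C and 30 °C, added after seeing the data, were then 1.39 (0.104) for the third probe in upf1Δ over WT, and -1.49 (0.332) and -1.61 (0.507) for the second minus the third in npl3Δ upf1Δ over WT and over npl3Δ. With that strain in Cy3 only, the second probe was 0.67 (0.0224) in npl3Δ over WT after 15 min at 37 °C and its temperature difference in upf1Δ -0.48, and the third probe was 1.08 (0.128) in upf1Δ plus npl3Δ over npl3Δ. The second minus the third was 0.48 (0.0305) in npl3Δ over WT after 30 min, -0.053 and -0.17 in npl3Δ upf1Δ over WT and over npl3Δ after 15 min, and its temperature difference in upf1Δ -2.44 (0.00222). The cause was not tested. Without replicate 3 of npl3Δ at 30 °C that difference was -1.64 (0.0314), with this pair turned -1.64 (0.0243), and without batch B, added after seeing the data, -1.58 (0.0336), when the contrast in npl3Δ after 30 min at 37 °C was -0.0072. With 1 coefficient per group, which uses fewer pairs per comparison, the temperature difference over npl3Δ was 1.63 (0.24) for the third probe and -2.18 (0.13) for the second minus the third.

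Omitting 1 pair at a time gave, for the second probe, 0.44 to 0.85 in npl3Δ over WT after 30 min at 37 °C (adjusted p = 0.0551 without replicate 2), 1.49 to 2.53 in upf1Δ over WT at 30 °C, 1.74 to 2.17 after 15 min at 37 °C (0.455 without its own pair), 1.90 to 2.10 in npl3Δ upf1Δ over npl3Δ after 15 min (0.151 without its own pair) and -0.54 to 0.50 for its temperature difference in upf1Δ. The third probe was 1.35 to 1.61 in upf1Δ over WT after 15 min (0.0627 without its own pair), with a temperature difference of 1.53 to 1.78. The second minus the third was -0.0072 to 0.33 in npl3Δ over WT after 30 min, and its temperature difference -2.29 to -1.94 in npl3Δ upf1Δ over WT (0.0897 without the pair at 37 °C) and -2.10 to -1.26 in upf1Δ. The first probe was -0.28 to 0.056 in npl3Δ over WT after 30 min. No paired analysis was possible because replicate numbers were given in sample order and pair nothing, while the differences within batches stand in the report. Most Upf1 results rest on 1 pair each, and the signal over background is unknown.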
